A study of Mus musculus with 4 samples.

Results

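The genes described here are 10 genes that pattern the ventricles of the mouse heart, chosen by name from the 43346 gene identifiers of the count files. They are the Iroquois homeobox genes Irx3, Irx4 and Irx5, the Notch-responsive repressors Hey1 and Hey2, the basic helix-loop-helix factors Hand1 and Hand2, and Lbh, Mpped2 and Prdm16. Whole hearts were taken on the day of birth (P0) and their RNA was sequenced in 4 libraries. The libraries labelled MRTFA/B double knockout (DKO, n = 2) are of mixed strain background, and the wild type libraries (WT, n = 2) are of ICR background, so genotype and strain cannot be told apart. MRTFA and MRTFB are coactivators of serum response factor (SRF). How they were removed, and in which cells, is not given in the labels, nor is whether the libraries of a group came from separate animals. Each p-value therefore measures the spread among the 4 libraries only, and that spread could be technical.

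The ventricle wall forms an outer compact layer, which proliferates and carries most of the pumping force, and an inner trabecular layer, from which the fast ventricular conduction system derives. Notch signalling from the endocardium, the neuregulin receptors and a set of transcription factors keep these layers, and the left and right chambers, distinct. HEY2 and PRDM16 mark the compact layer, IRX3 acts in the trabecular layer and conduction system, IRX4 is restricted to ventricular muscle, and HAND1 and HAND2 are best known for the left and the right ventricle of the embryo.

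The libraries held between 16175259 and 29460641 counted reads, and levels are given as CPM, read counts scaled to a common library total. The test covered 16009 genes, all 10 patterning genes among them. Across genes, which are not independent replicates, log CPM correlated at r = 0.978 between the DKO libraries and 0.992 between the WT libraries. Counts differed beyond sampling noise within both groups, so each library was counted as a sample of its own, although separate libraries from the same RNA could differ in this way too. Mrtfa was at 3.35 and 2.26 CPM in the DKO libraries, against 9.06 and 11.1 CPM in the WT libraries (adjusted p = 0.120 by edgeR and 1.21e-05 by DESeq2). Mrtfb was at 46.0 and 49.6 CPM in DKO, against 46.9 and 56.8 CPM in WT with overlapping groups; reads from exons that a deletion leaves in place are counted too, so the Mrtfb level does not check its label. None of the 10 genes lies on chromosome 15 or 16, where Mrtfa and Mrtfb lie. Markers of lung, a tissue that could be dissected along with the heart and that also uses Iroquois genes, summed to at most 0.494 CPM in any library.

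Prdm16 was the patterning gene that differed most clearly between the genotypes, and it lay lower in DKO hearts. Hey2 and Irx5 lay slightly higher in both DKO libraries without passing a test. For Irx3, Irx4, Hand2 and Lbh the DKO libraries lay far from each other. Since hearts were sequenced whole, fewer cells of a type and less RNA per cell cannot be told apart. By edgeR's quasi-likelihood test with Benjamini-Hochberg adjustment over all genes tested, 0 of the 10 genes passed an adjusted p of 0.05, where 0.075% of all genes tested did. DESeq2 called 1 of the 10, Prdm16, where it called 3.82% of the genes it adjusted, and limma-voom called 0. Of the 10 genes, 1 had an unadjusted edgeR p under 0.05, Prdm16 on the lower side, against 17.3% of all genes (8.7% higher and 8.63% lower). Of the 10 fold changes 7 were positive, against 51.3% of all genes, and their median was 0.12 on the log2 scale, against 0.01 over all genes tested. In 4 of the 10 genes the DKO and WT libraries did not overlap, a share below the 51.1% of all genes. Irx3, Irx5 and Hey2 had both DKO libraries above both WT libraries, as did 25.8% of all genes, and Prdm16 had both below, as did 25.2% of all genes.

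**Figure D1:**
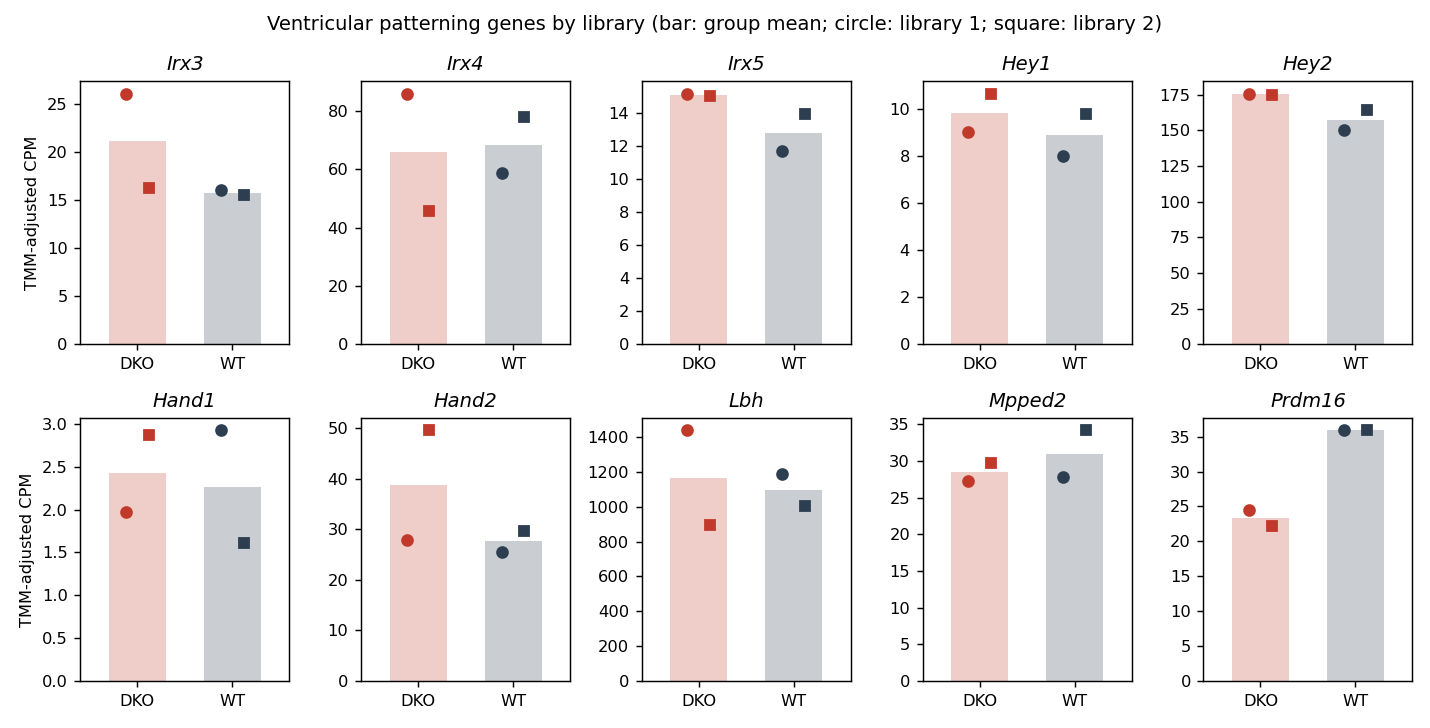
Level of each ventricular patterning gene in CPM (vertical axis, from 0) in DKO and WT libraries; bars are group means, circles library 1 and squares library 2. Prdm16 is at 24.5 and 22.2 CPM in DKO, below the 35.9 CPM of both WT libraries, while the DKO libraries lie far apart for Irx4, Hand2 and Lbh.

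Levels of different genes were compared per length, as CPM per kilobase of annotated exon averaged over the 4 libraries. Lbh stood far above the rest at 353 CPM per kilobase, higher than 99.6% of tested genes with an annotated length. Hey2 followed at 36.2, Irx4 at 25.8 and Hand2 at 14.1 CPM per kilobase. Mpped2 was at 8.68, Irx3 at 6.67, Irx5 at 4.46, Prdm16 at 3.18, Hey1 at 2.87 and Hand1 at 1.17 CPM per kilobase. The ranges over the 4 libraries of Irx4 and Hand2, of Mpped2 and Irx3, of Irx5 and Prdm16, and of Prdm16 and Hey1 overlapped. The order within these pairs was not the same in every library, so those neighbours have no firm order. The ranges of Hey2 and Irx4 overlapped too, but Hey2 lay above Irx4 in each of the 4 libraries. Per kilobase, Prdm16 was at 2.63 and 2.38 CPM in the DKO libraries, with Hey1 at 2.77 and 3.26, and in the WT libraries Prdm16 was at 3.85 and 3.85 CPM, with Hey1 at 2.45 and 2.99.

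Prdm16 (ENSMUSG00000039410, chr4:154316125-154636873, minus strand, mm10) encodes a zinc finger protein that maintains compact-layer identity in the mouse left ventricle and is also known for its role in brown fat. It was at 24.5 and 22.2 CPM in the DKO libraries, against 35.9 and 35.9 CPM in the WT libraries, from 696 and 363 reads in DKO and 1019 and 894 reads in WT. The groups did not overlap, and the exact Poisson 95% intervals, which cover counting error only, ended at 26.4 and 24.6 CPM in DKO and began at 33.7 and 33.6 CPM in WT. Means were 23.4 ± 1.65 CPM in DKO and 35.9 ± 0.00966 CPM in WT (SD, n = 2 each), a ratio of 0.651. The log2 fold change was -0.62 (SE 0.12, 95% interval -0.92 to -0.31), where the DKO libraries differed from each other by 0.14. The unadjusted edgeR p was 0.00256 and the adjusted p 0.146, so the gene missed the threshold in edgeR, while DESeq2 gave an adjusted p of 0.0292. Its log2 fold change stayed between -0.70 and -0.55 with any library left out. Such a fit leaves 1 library in a group, so no p-value is given from it. Prdm16 shares 109 exon bases with B230104I21Rik on the opposite strand, which held 4 and 2 reads in DKO and 1 and 0 in WT.

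The promoter of Prdm16 is shown because its transcript carried the clearest difference, and that of Hey2 because it is the other compact-layer factor and lay on the opposite side. Both are RefSeq windows of GRCm38.p6, from 250 bases before to 50 after the start, read along the gene's strand. They are chr4:154636824-154637123 (minus strand) for Prdm16 and chr10:30842734-30843033 (minus strand) for Hey2. Capitals in Prdm16 mark a stretch that differs by 1 letter from the CArG box, the site that SRF binds with its MRTF partners, and GGAATG, the core letters bound by TEAD factors. Capitals in Hey2 mark TGGGAA, the core letters bound by the Notch partner RBPJ, on either strand; the upstream stretch also holds GGAATG on the other strand, overlapping it.
Prdm16: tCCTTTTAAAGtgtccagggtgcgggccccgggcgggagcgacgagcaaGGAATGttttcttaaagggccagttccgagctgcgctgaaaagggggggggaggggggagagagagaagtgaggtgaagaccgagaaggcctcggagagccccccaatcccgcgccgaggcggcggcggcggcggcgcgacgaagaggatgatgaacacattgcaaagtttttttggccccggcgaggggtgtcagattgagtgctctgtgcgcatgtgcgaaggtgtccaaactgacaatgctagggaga
Hey2: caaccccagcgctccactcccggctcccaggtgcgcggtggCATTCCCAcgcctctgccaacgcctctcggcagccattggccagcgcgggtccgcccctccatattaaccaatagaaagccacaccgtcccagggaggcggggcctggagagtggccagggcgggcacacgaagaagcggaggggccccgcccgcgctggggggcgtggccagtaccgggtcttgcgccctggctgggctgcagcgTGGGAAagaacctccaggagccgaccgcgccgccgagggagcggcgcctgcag

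Windows were at hand for 7 of the 10 genes, 9 windows in all, and each motif was searched on both strands. An exact CArG box was in 0 of the 9 windows, and in 1.63% of all 32851 promoter windows. A stretch 1 letter away from it was in the Prdm16 window, 249 bases before the start, and in 19.9% of all windows. GGAATG was in the Prdm16 and Hey2 windows and in 14.7% of all windows. TGGGAA was in 4 of the 9 windows, those of Hey2, Hand2 and Irx3 and a window of Mpped2, and in 25.6% of all windows. CACGTG, an E-box that HEY proteins bind, was in 0 of the 9 and in 7.15% of all windows. Irx5, Hey1 and Hand1 were not searched. These matches describe letters in short windows and are not evidence of binding.

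Transcripts of proteins that work with PRDM16 were read beside it. The list held 11 genes, all tested, of which 5 lay above and 6 below 0 in fold change (median -0.02), and 0 passed in edgeR or DESeq2. Mecom, the closest relative of Prdm16, was at 36.9 and 31.4 CPM in DKO and at 32.8 and 35.0 CPM in WT, and the groups overlapped. Ctbp1, a corepressor, was at 104 and 95.4 CPM in DKO and at 113 and 107 CPM in WT. Smad4, the shared mediator of TGF-beta and BMP signals, was at 77.8 and 88.5 CPM in DKO against 67.1 and 65.5 CPM in WT, with an unadjusted p of 0.0273 and an adjusted p of 0.235 by edgeR. Ppargc1a, a coactivator of mitochondrial genes that PRDM16 binds in mouse brown fat, differed mainly inside the DKO group, at 197 and 434 CPM, with 322 and 278 CPM in WT. Ppara, a nuclear receptor of fatty acid oxidation, was likewise uneven, at 15.7 and 33.6 CPM in DKO and 30.7 and 24.2 CPM in WT.

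Within 500 kb of Prdm16 lie 15 other tested protein-coding genes, 8 with a negative fold change. Of the 15, 3 had an unadjusted edgeR p under 0.05, a share near the 17.3% of all genes tested, non-coding genes included. They were Fam213b and Rer1, which lay lower, and Tprgl, which lay higher. DESeq2 called 1 of the 15, Fam213b, which lies 259 kb away. Fam213b was at 5.01 and 3.43 CPM in DKO, against 12.8 and 10.5 CPM in WT, a log2 fold change of -1.45 (SE 0.25), with adjusted p = 0.126 by edgeR and 4.67e-04 by DESeq2. Rer1, a sorting receptor of the early secretory pathway, was at 64.1 and 67.5 CPM in DKO against 88.5 and 85.0 CPM in WT. Tprgl was at 82.9 and 95.01 CPM in DKO against 71.8 and 70.5 CPM in WT. Around all 10 patterning genes, 19 of 54 such neighbours (35.2%) had an unadjusted edgeR p under 0.05, a larger share than that of all genes. DESeq2 called 4 of the 54 and edgeR 0. The part of strain background in these differences was not tested, and strain cannot be told apart from genotype here.

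**Figure D2:**
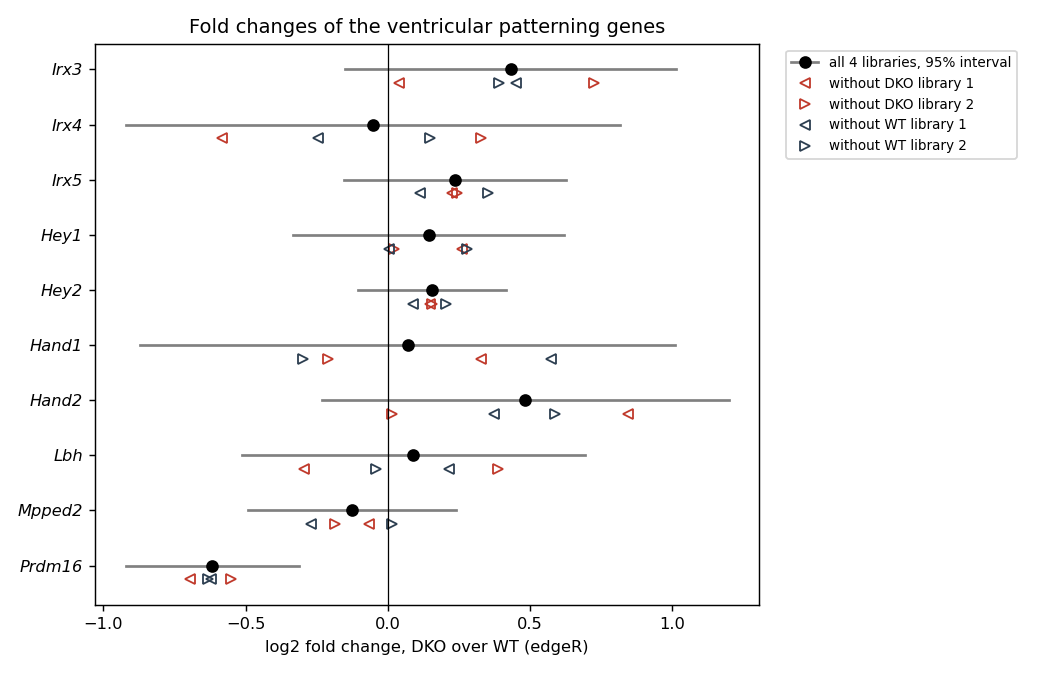
Log2 fold change of each patterning gene, DKO over WT, from edgeR (horizontal axis); dots with lines are the values of all 4 libraries with 95% intervals, and open triangles the values with the named library left out. The interval of Prdm16, -0.92 to -0.31, is the only 1 of the 10 that lies wholly on one side of 0, and Irx4 moves between -0.58 and 0.33 as libraries are left out.

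The Hey genes, transcriptional repressors switched on by Notch, had small positive fold changes that did not pass the test. Hey2 (ENSMUSG00000019789, chr10:30832359-30842801), which holds the compact layer apart from the trabecular and atrial programmes, was at 176 and 175 CPM in the DKO libraries against 150.5 and 165 CPM in the WT libraries. Both DKO libraries lay above both WT libraries, and the difference was small, with a log2 fold change of 0.16 (SE 0.11, 95% interval -0.10 to 0.42; adjusted p = 0.498 by edgeR). Hey1 (ENSMUSG00000040289, chr3:8663359-8667256), which is more abundant in atria and is also used by endothelium, was at 9.03 and 10.6 CPM in DKO and at 8.0 and 9.76 CPM in WT. Its groups overlapped, and its log2 fold change was 0.14 (SE 0.19, 95% interval -0.33 to 0.62). Atrial muscle markers were higher beside it, with 11 of 12 fold changes positive and summed levels of 1705 and 1634 CPM in DKO against 738 and 1145 CPM in WT. Their part in the level of Hey1 was not tested.

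Upstream of the Hey genes, the Notch receptors and ligands included 8 genes, of which 2 had a positive and 6 a negative fold change (median -0.17); 0 passed in edgeR or DESeq2. Notch2 and Notch1 had the highest CPM of the receptors before scaling to length. Notch2 was at 59.4 and 54.1 CPM in DKO against 68.1 and 58.8 CPM in WT. Notch1 was at 32.6 and 40.1 CPM in DKO and at 36.3 and 40.6 CPM in WT. Per kilobase, Notch2 averaged 5.57 CPM and Notch1 was the lowest at 2.63, below Notch3 at 3.63 and Notch4 at 3.18. Notch3, the receptor of smooth muscle and pericytes, was at 22.0 and 26.6 CPM in DKO against 32.4 and 36.6 CPM in WT (log2 fold change -0.51, SE 0.15; unadjusted p = 0.0149 and adjusted p = 0.195 by edgeR). Smooth muscle and pericyte markers lay lower with it, 8 of 8 with a negative fold change, summing to 1103 and 978 CPM in DKO against 3650 and 2179 CPM in WT. Acta2, itself an SRF target, made up 535 and 439 CPM of the sum in DKO and 2962 and 1468 CPM in WT. The part of these cells in the Notch3 level was not tested. Dll4, an endothelial ligand, was at 9.73 and 13.7 CPM in DKO and at 21.7 and 14 CPM in WT.

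Of the 15 genes that process Notch or act with it in the nucleus, 9 had a positive and 6 a negative fold change (median 0.11), and 0 passed. Adam10, the protease that cuts Notch at the surface, was at 234 and 214 CPM in DKO against 195 and 202 CPM in WT, and Mib1, the ligase that activates the ligands, at 185 and 199.7 CPM in DKO against 159 and 169 CPM in WT. Rbpj, the DNA-binding partner of Notch, was at 15.7 and 21.7 CPM in DKO against 25.1 and 27.8 CPM in WT (log2 fold change -0.51, SE 0.19), and the coactivator Maml3 at 14.3 and 13.9 CPM in DKO against 8.78 and 11.2 CPM in WT (0.50, SE 0.18). Both had unadjusted p-values of 0.0361 and 0.0328 and missed the threshold after adjustment (edgeR adjusted p = 0.258 and 0.251).

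Other direct Notch targets had fold changes of the opposite sign to those of the Hey genes, a difference that was not tested. All 5 were negative, at a median of -0.35, but edgeR called 0 of them and DESeq2 0 of the 3 it adjusted. Hes1 was at 18.2 and 17.9 CPM in DKO against 23.9 and 22.0 CPM in WT, a log2 fold change of -0.35 (SE 0.13). Nrarp, a feedback inhibitor of Notch, was near the limit of these libraries at 0.529 and 0.367 CPM in DKO, against 1.41 and 1.37 CPM in WT (-1.58, SE 0.36; unadjusted p = 0.00505 and adjusted p = 0.157 by edgeR). Efnb2, an endocardial ligand of trabeculation, was at 50.5 and 45.6 CPM in DKO against 52.6 and 57.6 CPM in WT, and Heyl, the Hey relative of smooth muscle, at 24.5 and 21.2 CPM in DKO against 23.8 and 29.1 CPM in WT.

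Among the Iroquois genes, Irx4 and Irx3 were uneven within the DKO group and Irx5 was even. Irx4 (ENSMUSG00000021604, chr13:73260479-73269608), a ventricle-restricted factor that represses atrial genes in mouse, was at 86.0 and 45.7 CPM in the DKO libraries and at 58.9 and 78.0 CPM in the WT libraries. DKO library 1 held the highest level of the 4 and DKO library 2 the lowest, so the groups overlapped fully. The log2 fold change was -0.05 (SE 0.33, 95% interval -0.92 to 0.82), the libraries of the DKO group differing by 0.91 and those of the WT group by -0.40 (library 1 over library 2). The direction was not stable. The log2 fold change was 0.33 without DKO library 2 and 0.15 without WT library 2, and -0.58 without DKO library 1 and -0.24 without WT library 1. It was also slightly positive with no composition factors (0.02) and when libraries were scaled to their cardiomyocyte markers (0.12).

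Irx3 (ENSMUSG00000031734, chr8:91798525-91802067), needed for fast conduction in the His-Purkinje system, was at 26.1 and 16.2 CPM in DKO against 16 and 15.5 CPM in WT. Both DKO libraries lay above both WT libraries, but DKO library 2 did so by a small margin and DKO library 1 carried the difference. The log2 fold change was 0.43 (SE 0.24, 95% interval -0.15 to 1.02; adjusted p = 0.406 by edgeR). Without DKO library 2 it was 0.73, and without DKO library 1 it was 0.04. Irx3 shares 124 exon bases with the antisense gene Irx3os, at 3.10 and 2.02 CPM in DKO and 1.83 and 1.0 CPM in WT. The sources used here do not give the strand setting of the counting, so reads in the shared part cannot be assigned. Irx5 (ENSMUSG00000031737, chr8:92357625-92376286), which shapes the repolarisation gradient across the ventricle wall in mouse, was even within the DKO group, at 15.2 and 14.99 CPM, against 11.7 and 13.9 CPM in WT. Its log2 fold change was 0.24 (SE 0.16, 95% interval -0.15 to 0.63; adjusted p = 0.493 by edgeR). Irx3 and Irx5 are neighbours, 0.556 Mb apart on chromosome 8, and DKO library 1 exceeded DKO library 2 by 0.68 (log2) for Irx3 and by 0.02 for Irx5.

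Of the related Iroquois genes, Irx1 was at 7.34 and 9.54 CPM in DKO against 4.97 and 6.07 CPM in WT (log2 fold change 0.61, SE 0.23; unadjusted p = 0.0364 and adjusted p = 0.259 by edgeR). Irx2 was at 18.1 and 19.7 CPM in DKO and at 16.4 and 18.3 CPM in WT, with overlapping groups. Irx6 was too low to be tested.

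**Figure D3:**
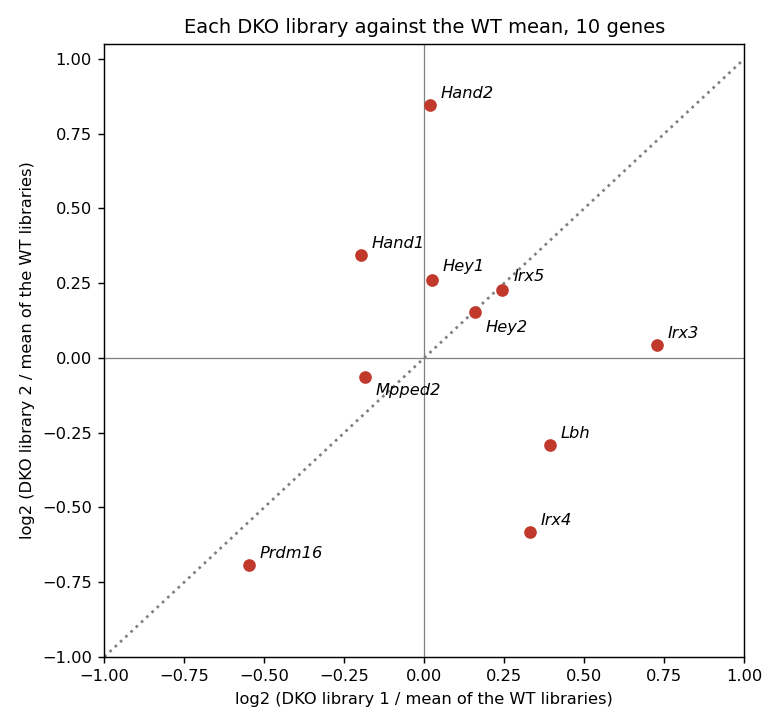
Log2 ratio of DKO library 1 (horizontal axis) and DKO library 2 (vertical axis) to the mean of the WT libraries, 1 point per patterning gene, with the dotted line where the DKO libraries are equal. Prdm16 is low in both (-0.55 and -0.69), Irx5 and Hey2 lie on the line, and Irx3, Irx4, Lbh and Hand2 lie far from it.

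Hand2 differed between the DKO libraries in the opposite sense to Irx3, Irx4 and Lbh. Hand2 (ENSMUSG00000038193, chr8:57320983-57324633), a factor of the right ventricle, outflow tract, endocardium and epicardium, was at 27.9 and 49.6 CPM in the DKO libraries, against 25.4 and 29.7 CPM in the WT libraries. DKO library 1 fell inside the WT range and DKO library 2 lay well above it. The log2 fold change was 0.48 (SE 0.28, 95% interval -0.23 to 1.20; adjusted p = 0.440 by edgeR). It was 0.85 without DKO library 1 and 0.02 without DKO library 2. The non-coding gene Hand2os1, which shares 461 exon bases with Hand2 on the opposite strand, was at 94.4 and 119 CPM in DKO against 74.3 and 80.7 CPM in WT (log2 fold change 0.46, SE 0.14). Its unadjusted p was 0.0176 by edgeR and its adjusted p 0.195 by DESeq2, and both DKO libraries lay above both WT libraries. Of the 50-base stretches of Hand2 transcripts, 15.8% also occur in Hand2os1, and how reads were divided between the genes is unknown.

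Hand1 (ENSMUSG00000037335, chr11:57828705-57832818), the left-ventricular relative, was the least abundant of the 10 genes, at 1.97 and 2.88 CPM in DKO and at 2.93 and 1.61 CPM in WT. These values rest on 40 to 83 reads a library. The WT libraries enclosed the DKO libraries, and the log2 fold change of 0.07 (SE 0.38) had a 95% interval of -0.87 to 1.01. The WT libraries differed beyond counting error, with exact Poisson 95% intervals of 2.33 to 3.63 and 1.15 to 2.19 CPM. Both HAND proteins pair with E proteins and are held back by ID proteins. Of 10 such partners and relatives 9 were tested, 5 with a positive and 4 with a negative fold change (median 0.19), and 0 passed. Tcf4 and Tcf12 had the highest CPM of the E protein genes before scaling to length. Tcf4 was at 260 and 240.2 CPM in DKO against 276 and 262 CPM in WT. Tcf12 was at 144 and 138 CPM in DKO against 122 and 123 CPM in WT. Per kilobase, Tcf3 and Tcf12 averaged 8.50 and 8.48 CPM. Id2 was at 51.8 and 45.4 CPM in DKO against 32.5 and 38.9 CPM in WT (log2 fold change 0.45, SE 0.14; unadjusted p = 0.0202), and Id4 at 3.42 and 6.48 CPM in DKO against 2.26 and 1.85 CPM in WT (1.25, SE 0.37; unadjusted p = 0.0146). Neither passed after adjustment (edgeR adjusted p = 0.214 and 0.193).

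Lbh (ENSMUSG00000024063, chr17:72918305-72941947), a transcriptional cofactor named for the limb bud and heart, was at 1440 and 896 CPM in DKO and at 1191 and 1003 CPM in WT. As with Irx4, the DKO libraries held both the highest and the lowest level. The log2 fold change was 0.09 (SE 0.24, 95% interval -0.51 to 0.69), and it became -0.29 without DKO library 1 and -0.04 without WT library 2. These levels rest on 14652 to 40821 reads a library. Mpped2 (ENSMUSG00000016386, chr2:106693269-106868356), which encodes a metallophosphodiesterase, was at 27.3 and 29.7 CPM in DKO and at 27.8 and 34.2 CPM in WT. Its groups overlapped, and the log2 fold change of -0.12 (SE 0.15, 95% interval -0.49 to 0.24) was 0.07 when libraries were scaled to cardiomyocyte markers and 0.02 without WT library 2.

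In 5 of the 10 genes the DKO libraries differed from each other by more than the WT libraries did. The median distance between library 1 and library 2 over the 10 genes was 0.39 (log2) in DKO and 0.25 in WT, against 0.24 and 0.15 over all genes tested. The difference between genotypes exceeded the larger of the within-group distances in 2 genes, Prdm16 and Hey2. The margin was narrow for Hey2, with a log2 fold change of 0.16 and WT libraries differing by -0.13 (library 1 over library 2). How many of all genes tested met either rule was not counted, so neither count is read as particular to these genes. Gja5, the connexin of trabecular and conduction myocardium, was likewise higher in DKO library 1 than in library 2, at 145 and 84.5 CPM, and was at 52.1 and 112 CPM in WT.

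Genes of the layers that these factors pattern were read beside them. The compact-layer list held 10 genes, 5 with a positive and 5 with a negative fold change (median -0.02), and 0 passed in edgeR or DESeq2. Mycn, a proliferation factor of the compact layer, was at 9.20 and 8.32 CPM in DKO against 13.8 and 10.8 CPM in WT (log2 fold change -0.49, SE 0.19; unadjusted p = 0.0426 and adjusted p = 0.274 by edgeR). Tbx20, a T-box factor of the myocardium, was at 708 and 728 CPM in DKO against 733 and 848 CPM in WT, and Igf2, an epicardial and fetal growth factor, at 1706 and 2011 CPM in DKO and 1774 and 2387 CPM in WT. Fgfr2, a receptor for epicardial FGF, was at 11.6 and 12.4 CPM in DKO against 9.37 and 9.44 CPM in WT (unadjusted p = 0.0659).

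The trabecular list of 11 genes had 8 positive and 3 negative fold changes (median 0.25). In edgeR 0 passed, and DESeq2 called Nppa and Bmp10 higher in DKO hearts. Nppa was at 480.3 and 432 CPM in DKO against 237 and 221 CPM in WT, and Bmp10 at 21.4 and 40.4 CPM in DKO against 8.85 and 8.20 CPM in WT. Both are also atrial genes at birth. Both belong to the atrial markers given above, so the higher level of those markers is not a separate observation. The part of atrial tissue in the levels of Nppa and Bmp10 was not tested. Nppb, the other natriuretic peptide, was at 45.3 and 603 CPM in DKO and 212 and 71.6 CPM in WT. Nrg1, the endocardial neuregulin ligand, was at 4.16 and 6.55 CPM in DKO against 2.89 and 2.01 CPM in WT (unadjusted p = 0.0147 and adjusted p = 0.193 by edgeR). Its receptor gene Erbb4 was at 82.8 and 95.7 CPM in DKO against 69.4 and 80.9 CPM in WT, and Erbb2 was at 59.6 and 49.7 CPM in DKO and 52.0 and 54.7 CPM in WT. Cited1, a trabecular coactivator, was at 22.7 and 25.7 CPM in DKO and 29.0 and 27.9 CPM in WT. Nrg1, Erbb4, Erbb2 and Cited1 were chosen after their values were seen.

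Genes reported to be regulated by IRX, HEY or HAND factors in mouse heart numbered 13, with 8 positive and 5 negative fold changes (median 0.41); Nppa was the 1 call in DESeq2, and edgeR called 0. Gja1, the connexin of working muscle, was at 1270 and 1224 CPM in DKO against 1598 and 1357 CPM in WT, and the cardiac factor Gata6 at 223 and 310.2 CPM in DKO against 193 and 207 CPM in WT (unadjusted p = 0.0554 by edgeR). Over the 9 lists together, 81 genes were tested, 41 with a positive and 40 with a negative fold change. Of them, 13 (16%) had an unadjusted edgeR p under 0.05, near the 17.3% of all genes tested.

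**Figure D4:**
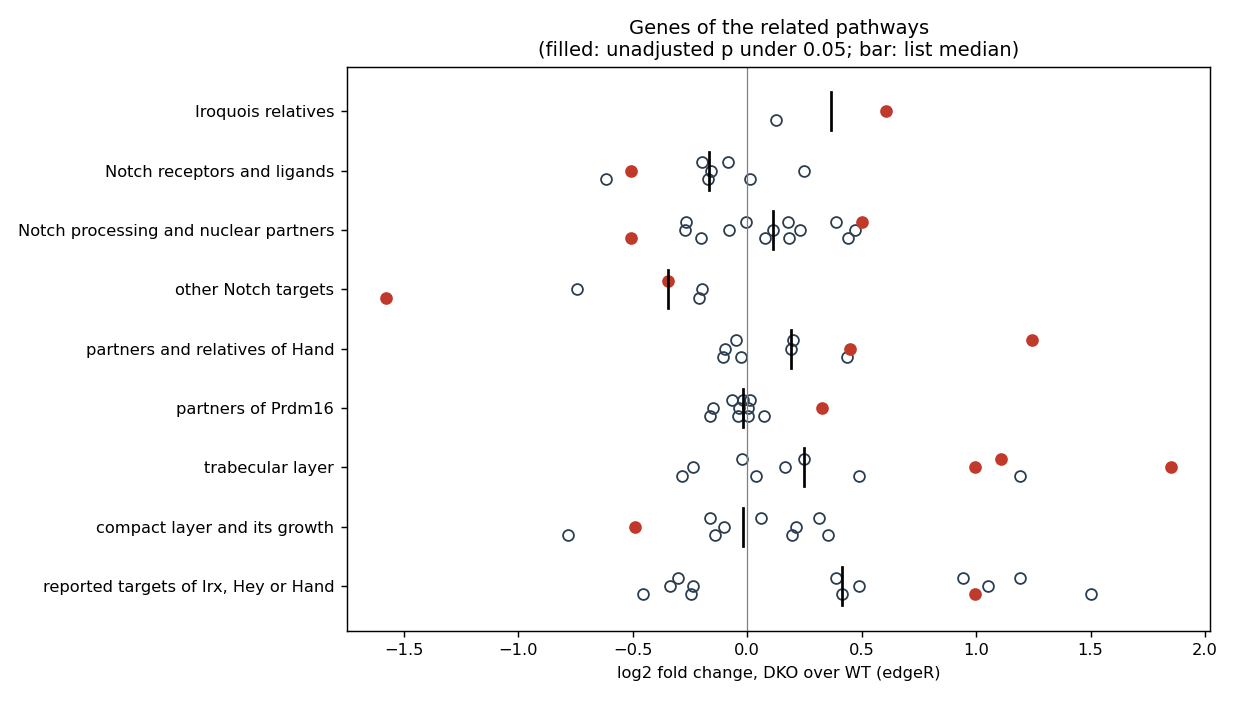
Log2 fold change, DKO over WT, of the tested genes of the 9 related lists (horizontal axis), 1 point per gene; filled points have an unadjusted edgeR p under 0.05 and the vertical bar is the list median. The Notch target list has its 5 points left of 0, and the trabecular list has its furthest points, Bmp10 among them, on the right.

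Cell markers were read beside the Prdm16 level. General cardiomyocyte markers summed to 49812 and 45867 CPM in DKO against 54995 and 54253 CPM in WT, with 9 of 10 fold changes negative and a median of -0.17. Scaled to those markers, Prdm16 had a log2 fold change of -0.43, and the median of all genes was 0.20 under that scaling. The part of cardiomyocyte content in the Prdm16 level was not tested. Ventricular muscle markers summed to 19410 and 19252 CPM in DKO and 20070 and 18227 CPM in WT, with 4 of 6 fold changes negative and a median of -0.29. Myl2, Myl3, Kcnj2 and Kcne1 lay lower in both DKO libraries, as Prdm16 did, while Pln lay higher in both. Myh7 was at 3298 and 5775 CPM in DKO and at 3557 and 1930 CPM in WT. DESeq2 called Kcne1 and Kcnj2, 2 of the 6, against 3.82% of the genes it adjusted. The part of ventricular muscle in the Prdm16 level was not tested either. Endothelial and endocardial markers, a lineage in which Prdm16 is also used, summed to 1533 and 1670 CPM in DKO and 1475 and 1584 CPM in WT, with 6 of 10 fold changes positive. Fibroblast markers summed to 3455 and 4454 CPM in DKO and 4146 and 4436 CPM in WT, with 5 of 8 fold changes negative. Epicardial markers summed to 215 and 175 CPM in DKO against 170 and 160 CPM in WT, with 5 of 7 positive. Markers of sympathetic neurons, a cell type that uses Hand2, summed to 6.21 and 6.0 CPM in DKO and 5.89 and 8.92 CPM in WT. Of these 7 markers 3 were tested, all with negative fold changes (median -0.47) and 1 with an unadjusted p under 0.05, and Th, the defining enzyme, was at 0.161 CPM or less in every library. The part of the smooth muscle markers, which lay lower together with Prdm16, was not tested.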

How the data were processed

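Whole-heart RNA at postnatal day 0 was measured in 2 DKO and 2 WT libraries, grouped by the labels. The deposited values are raw read counts per Ensembl gene, which the authors made with HTSeq on mm10, per the submitters' processing notes, which also name DESeq 1.10.1. The sources used here give no aligner, annotation release or strand setting. Version suffixes were stripped, and symbols, positions and merged exon lengths came from GENCODE M21 (42462 of 43346 identifiers matched); exon lengths in the authors' annotation may differ. Rows naming no gene numbered 0.

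The test was edgeR 4.0.16 (R 4.3.3) with filterByExpr defaults, TMM factors, robust quasi-likelihood fitting and no covariate, on all 4 libraries, with Benjamini-Hochberg adjustment over 16009 genes. Levels are TMM-adjusted CPM, and fold changes are DKO over WT on the log2 scale. DESeq2 1.42.0, limma-voom (limma 3.58.1) and other scalings, filters, blocks and left-out libraries were alternatives; the scripts were tested on simulated data. Named genes were Mrtfa, Mrtfb, the 10 genes and genes overlapping their exons. From each related list where none passed, they were the 2 with the highest mean CPM and the 2 with the smallest unadjusted p. Others were chosen after their values were seen. The genes and lists were chosen with earlier results of these data known. With 2 libraries a group, an exact permutation test could give no p below 0.333, so none was used. A crossed pairing was added after seeing the data.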

Additional observations from a re-analysis of the deposited data

How the results depend on the processing

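Among the 10 patterning genes the count past the edgeR threshold was 0, and it was 1 with no filter and in DESeq2 (Prdm16 each time) and between 0 and 2 with 1 library left out. Calls with 1 library left out came only from the fits without a DKO library, in which the count over all genes rose as well. Without either WT library the count among the 10 was 0. The log2 fold change of Prdm16 was -0.70 and -0.55 without DKO library 1 and 2, and -0.62 and -0.63 without WT library 1 and 2. That of Hand2 was 0.85 without DKO library 1, and that of Irx3 was 0.73 without DKO library 2. These fits leave 1 library in a group, so their calls are not read as results. Over all genes the count was 12, against 1514 with no filter, 526 in DESeq2, 2 with a replicate block and 3 with a crossed block, and between 2 and 2795 with 1 library left out. A left-out library leaves its group with 1, which is assumed to vary like the other group. Same-numbered libraries deviated with r = -0.105, and the labels state no pairing; neither the block nor the crossed block changed a call among the 10 genes. Irx3, Irx5, Hey1, Hey2, Hand2 and Prdm16 kept their direction in all 15 alternatives. Some of these came close to 0, Hey1 at 0.004 without WT library 1, Hand2 at 0.016 without DKO library 2 and Irx3 at 0.041 without DKO library 1. Irx4 turned to 0.023 with no composition factors and 0.123 with cardiomyocyte scaling, and ran from -0.58 to 0.33 with 1 library left out. Mpped2 and Mrtfb turned to 0.070 and 0.075 with cardiomyocyte scaling, which moves the median of all genes to 0.20. With 1 library left out, Mpped2 ran from -0.27 (without WT library 1) to 0.017 (without WT library 2), Mrtfb from -0.25 to 0.012 (the same libraries), Hand1 from -0.30 (without WT library 2; -0.21 without DKO library 2) to 0.57, and Lbh from -0.29 (without DKO library 1; -0.04 without WT library 2) to 0.39. The cause was not tested. With all 4 libraries kept, the adjusted p of Prdm16 ranged over the alternatives, other tools included, from 0.00272 (edgeR, no filter) to 0.200 (edgeR, crossed block). Hand1 rests on the fewest reads of the 10 genes, 40 to 83 a library.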
